A study of Mus musculus with 12 samples.

Results

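The glutathione S-transferases (GST, counting the membrane-bound MGST enzymes), the UDP-glucuronosyltransferases (UGT) and the sulfotransferases (SULT) were followed in liver RNA from 12 male mice aged 6 weeks. All genes whose symbol in the array's annotation began with Gst and a class letter (a, k, m, o, p, t or z), Mgst, Ugt1, Ugt2 or Sult were taken, which gave 38 genes of the 12393 genes with a probe set of their own. They comprised 21 GST, 6 UGT and 11 SULT genes, each read from its brightest probe set. All mice carried a human alpha1-antitrypsin transgene that was active only in hepatocytes and was repressed by doxycycline. In the M line this was the wild-type protein, and in the Z line the mutant, ATZ, which is known to build up inside the cell. In the "off" groups (M off and Z off) the mice drank water with 40 ug/mL doxycycline from conception, and in the "on" groups (M on and Z on) they received none, so that transgene expression and the absence of doxycycline cannot be told apart. Each group held 3 arrays, described as biological replicates, and the strain and the number of founders of each line were not given in the labels. Any difference between Z and M mice is therefore also one between 2 transgenic lines.

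These enzymes carry out the second phase of detoxification, in which a water-soluble group is attached to a drug, hormone, bile pigment or reactive metabolite so that it can leave the cell. GSTs attach glutathione, UGTs attach glucuronic acid from UDP-glucuronate, and SULTs attach sulfate from PAPS. The liver is the main site of this work, and many of the genes are known to respond to the oxidative stress sensor NRF2, to the xenobiotic receptors CAR, PXR and AHR, or to the sex-specific rhythm of growth hormone.

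The 8 measured hepatocyte markers were bright on every array, with a summed signal from 99757 to 147368; albumin (Alb) read 16217 to 28642. The probe set of the mouse's own Serpina1c, an alpha1-antitrypsin gene, read 17740 to 24722 in all groups and cannot check the labels, because it is not a measure of the human transgene. Array medians lay between 38.7 and 47.0 signal units. The ratio of 3' to 5' signal of actin, a measure of RNA integrity and labelling, was 2.18 to 2.53 in Z off and 2.44 to 5.16 in Z on. It was 2.715 to 3.887 in M off and 3.088 to 4.381 in M on, above every Z off array. On the first principal component, which held 18.2% of the variance of the brighter probe sets, the Z off arrays stood apart at 0.20 to 0.26, while no other array exceeded 0.12. The part of these 2 differences in the results below was not tested.

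Of the 38 conjugation genes, 31 had a mean level at or above the median of all probe sets (38.5 signal units). The other 7, Mgst2, Sult1c1, Sult1e1, Sult2a2, Sult2b1, Sult3a1 and Sult4a1, read between 0.5 and 26.6 on the 12 arrays. Sult1e1 (oestrogen sulfotransferase), Sult2a2 (which acts on hydroxysteroids) and Sult4a1 (a brain form) belong to this dim set. Signals of different probe sets are not on 1 scale, so levels are compared below only between arrays for the same gene.

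**Figure D1:**
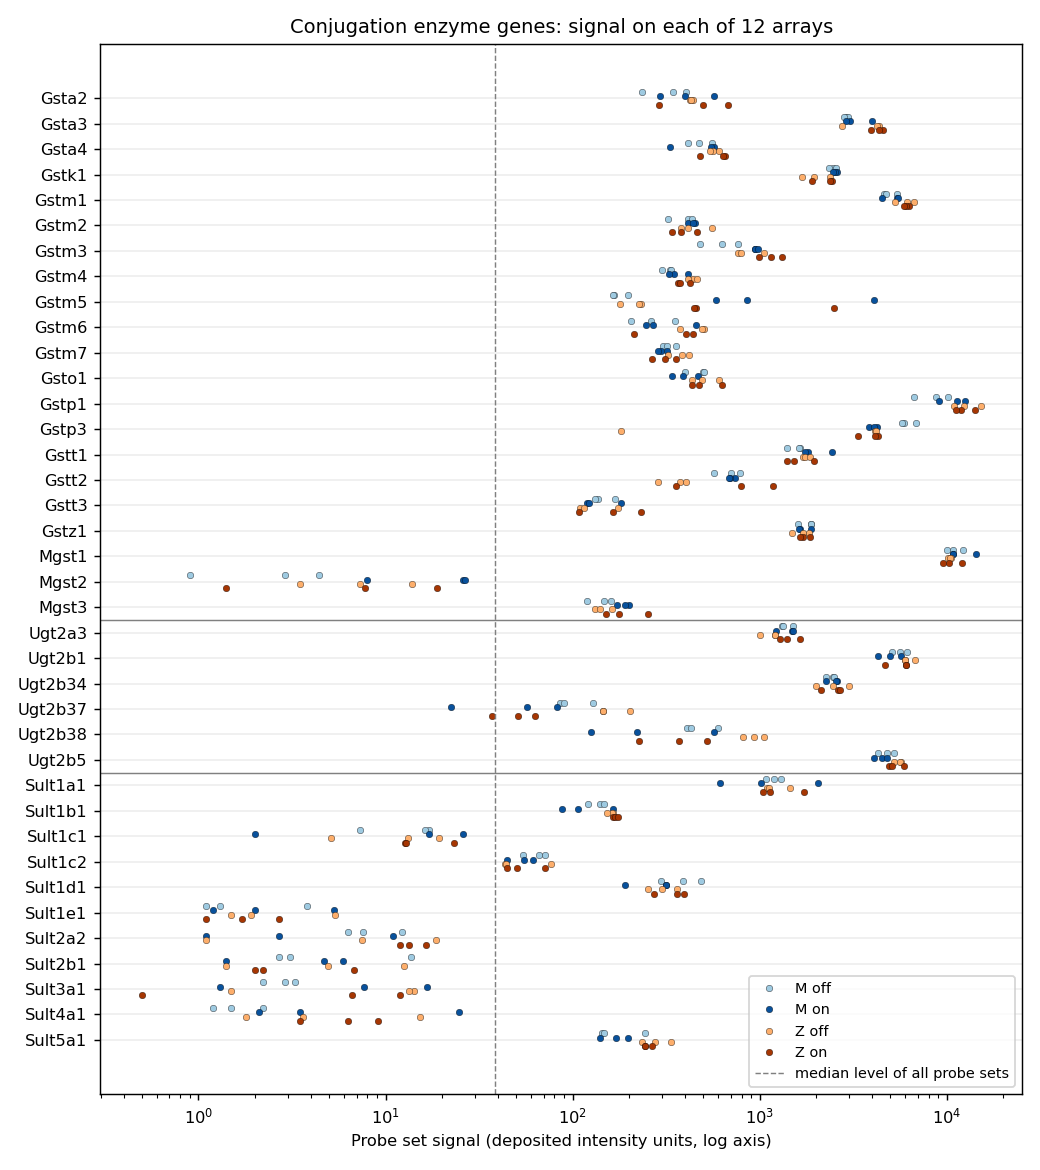
Signal of each of the 38 conjugation enzyme genes on the 12 arrays, in deposited intensity units on a log axis, with 1 point per array coloured by group and grey lines between the GST, UGT and SULT genes. The dashed line marks the median level of all probe sets (38.5); Gstm5, Gstp3, Ugt2b37 and Ugt2b38 spread widely across groups or arrays, and 7 dim genes lie between 0.5 and 26.6.

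No conjugation gene passed the test (limma on log2 signals, Benjamini-Hochberg adjusted p under 0.05 over 22626 probe sets) in any comparison. In Z on against Z off, 0 of 38 genes were called, beside 0.0133% of all probe sets, and the smallest adjusted p among the genes was 0.577. At an unadjusted p under 0.05, 4 of the 38 genes (10.5%) differed in that comparison, beside 6.29% of all probe sets, and 5 (13.2%) had groups that did not overlap, beside 11.8%. In M on against M off, 0 of 38 were called beside 0.0% of all probe sets, and 4 genes (10.5%) had an unadjusted p under 0.05 beside 5.18%, while 7 (18.4%) did not overlap, beside 10.5%. The test of whether the Z line and the M line changed differently called 0 of 38 genes beside 0.0%, and 1 gene, the dim Mgst2, had an unadjusted p under 0.05 (2.63% beside 5.18%). With both lines averaged, on against off called 0 of 38 genes beside 0.00884%, and 5 genes (13.2%) had an unadjusted p under 0.05 beside 5.84%. The median log2 difference over the 38 genes was 0.04 in Z mice and 0.03 in M mice, beside -0.03 and -0.01 over all probe sets. What follows describes the few genes that stood furthest from it.

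Among the GSTs at or above the median level the furthest was Gstm5, a mu-class enzyme. Its signal was 166.3, 163.9 and 197.1 in M off and 232.3, 179.0 and 227.6 in Z off. It was 854.4, 4092.8 and 585.9 in M on, and 455.4, 443.4 and 2482.9 in Z on. All 6 on arrays lay above all 6 off arrays, and within each on group 1 array read several times the others. Separation of all 6 arrays from all 6 was seen in 2 of the 38 genes (5.26%), beside 0.318% of all probe sets and 0.407% of the brighter ones. The log2 difference was 2.86 (SE 0.78) in M mice and 1.91 (SE 0.78) in Z mice, with limma adjusted p of 0.703 and 0.756. Averaged over both lines it was 2.38 (SE 0.55, adjusted p 0.413), a 5.22-fold difference. Leaving out Z on replicate 3, the highest Z array, moved the Z value to 1.09 (adjusted p 0.83). Leaving out M on replicate 2, the highest M array, moved the M value to 2.01 (adjusted p 0.769). The difference between the lines' changes was -0.95 (SE 1.10, adjusted p 0.954).

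The 250 bases before the start of Gstm5 are shown because this gene had the largest on-minus-off difference of the 38 and because its promoter holds both motifs searched for. The sequence is from RefSeq, build GRCm38.p6, chr3:107895604-107895853 on the plus strand, ending just before the start. Capitals mark the core of the antioxidant response element (TGACNNNGC, the NRF2 site) and of the xenobiotic response element (GCGTG, the AHR site), on either strand.
Gstm5: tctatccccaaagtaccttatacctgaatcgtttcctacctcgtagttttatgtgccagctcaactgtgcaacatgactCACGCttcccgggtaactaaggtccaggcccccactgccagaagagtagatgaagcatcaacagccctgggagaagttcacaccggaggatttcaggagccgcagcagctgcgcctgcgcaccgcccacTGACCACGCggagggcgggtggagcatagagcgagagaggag
The antioxidant core starts 42 bases before the gene, and the xenobiotic cores start 171 and 38 bases before it, the second inside the antioxidant core. Of the 34 conjugation genes in the promoter table, 4 (11.8%) held the antioxidant core, namely Gsta3, Gstm5, Gstm7 and Mgst1, beside 11.5% of all 27025 genes in the table. The xenobiotic core was in 9 of 34 (26.5%), beside 30.9% of all genes. By promoter, 10.2% and 28.2% of all 32851 windows of 250 bases held the 2 cores. Of these 4 genes, Gstm5 (1.91), Gsta3 (0.21, SE 0.22) and Mgst1 (0.04, SE 0.18) read higher in Z on than Z off. Gstm7 read lower (-0.27, SE 0.18, adjusted p 0.865), and its second probe set gave 0.11 (SE 0.32). The part of NRF2 in these values was not tested. A match of letters is no evidence that a factor binds there.

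Gstm3, another mu-class enzyme, read 764.7, 626.9 and 480.0 in M off and 939.0, 938.9 and 985.0 in M on. In Z mice it read 1049.9, 764.5 and 792.6 in off and 987.6, 1154.2 and 1321.1 in on. The M groups did not overlap and the Z groups did. The log2 difference was 0.64 (SE 0.22, adjusted p 0.849) in M mice, 0.41 (SE 0.22, adjusted p 0.823) in Z mice and 0.53 (SE 0.16, adjusted p 0.616) over both. A second Gstm3 probe set gave 0.50 (SE 0.15, adjusted p 0.637) over both lines. Mgst3, a membrane-bound enzyme of glutathione and leukotriene metabolism, read 119.5 to 159.8 in M off and 172.7 to 199.0 in M on. Its difference over both lines was 0.40 (SE 0.16, adjusted p 0.815), but its other, dim probe set gave -0.14 (SE 0.84). Gstt1, a theta-class enzyme, read 1408.0 to 1649.4 in M off and 1755.5 to 2446.4 in M on, without overlap (0.35, SE 0.20, adjusted p 1.0), and in Z mice its groups overlapped (-0.13). Without M on replicate 1 the M value was 0.20.

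Other bright GST genes were read with their intervals, apart from Gstp3, which is described below. Gstp1, the pi-class enzyme that is higher in male than female mouse liver, averaged 8490 ± 1736 in M off, 10971 ± 1778 in M on, 12822 ± 2162 in Z off and 12440 ± 1511 in Z on (SD, n = 3 each). The microsomal Mgst1 averaged 11039 ± 1072, 11990 ± 2003, 10342 ± 227 and 10651 ± 1290 in the same order. The 95% interval of the on-minus-off difference over both lines was -0.19 to 0.53 on the log2 scale for Gstp1. For Mgst1 it was -0.21 to 0.36, and for the abundant mu-class Gstm1 it was -0.22 to 0.30. For Gsta3, an alpha-class enzyme known for detoxifying aflatoxin epoxide, it was -0.15 to 0.53. Gstz1, which also serves tyrosine breakdown as maleylacetoacetate isomerase, had an interval of -0.26 to 0.25, and Gstk1, of mitochondria and peroxisomes, one of -0.18 to 0.39.

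**Figure D2:**
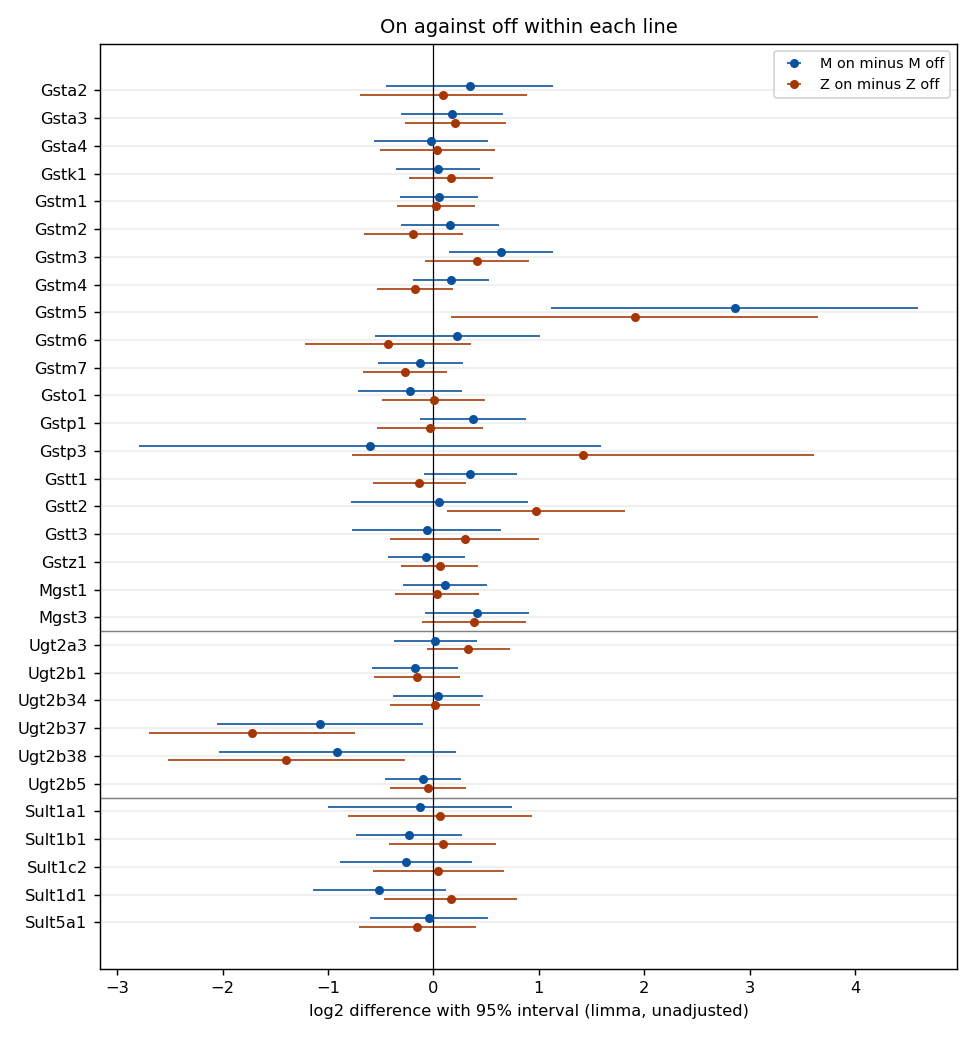
On-minus-off log2 difference in M mice (blue) and Z mice (brown) of the 31 conjugation genes at or above the median level, with 95% intervals from limma that are not adjusted for the number of probe sets (n = 3 arrays a group). Gstm5 lies to the right (2.86 and 1.91), Ugt2b37 and Ugt2b38 to the left, and most other genes have intervals that include 0.

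Among the UGTs, Ugt2b37 and Ugt2b38 read lower in on mice. Both are UGT2B enzymes, the subfamily that glucuronidates steroids and bile acids. Ugt2b37 read 85.8, 128.8 and 90.2 in M off and 22.4, 57.3 and 82.5 in M on. In Z mice it read 201.8, 145.2 and 145.1 in off and 62.6, 37.1 and 50.8 in on. All 6 on arrays lay below all 6 off arrays, the other of the 2 genes with that separation. The log2 difference was -1.08 (SE 0.44, adjusted p 0.924) in M mice and -1.72 (SE 0.44, adjusted p 0.577) in Z mice. Without M on replicate 1, the lowest array, the M value was -0.54 (adjusted p 1.0). Over both lines it was -1.40 (SE 0.31, adjusted p 0.394), a 2.64-fold difference and the smallest adjusted p of the 38 genes in that comparison.

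Ugt2b38 read 408.7, 598.4 and 431.1 in M off, and 124.9, 222.1 and 570.1 in M on. It read 1053.4, 929.5 and 813.5 in Z off, and 522.5, 370.3 and 225.6 in Z on. The Z groups did not overlap, and in M mice replicate 3 of the on group lay among the off arrays. The log2 difference was -1.40 (SE 0.50, adjusted p 0.709) in Z mice, -0.91 (SE 0.50, adjusted p 1.0) in M mice and -1.15 (SE 0.36, adjusted p 0.647) over both. Without M on replicate 3 the M value was -1.50, and without M on replicate 1 it was -0.41. Both genes also read higher in Z off than in M off, by 0.70 (SE 0.44, adjusted p 0.755) for Ugt2b37 and 0.97 (SE 0.50, adjusted p 0.697) for Ugt2b38, in each case without overlap.

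Of the other UGT2 genes, Ugt2b1 and Ugt2b5 also read lower in on mice, by less. Ugt2a3 and the brighter probe set of Ugt2b34 did not, while the second Ugt2b34 probe set gave -0.29 (SE 0.15, adjusted p 0.863). Ugt2b5 read 4282.8 to 5213.0 in M off and 4062.0 to 4762.9 in M on, and 5202.4 to 5685.3 in Z off and 4931.5 to 5933.5 in Z on. Its on-minus-off difference over both lines was -0.08 (95% interval -0.33 to 0.18), that of Ugt2b1 was -0.16 (-0.46 to 0.13), and that of Ugt2b34 was 0.03 (-0.27 to 0.33). Ugt2a3, which lies between Ugt2b37 and Ugt2b38 in the RefSeq order of genes on chromosome 5, read 1214.5, 1001.8 and 1207.8 in Z off and 1634.2, 1283.9 and 1392.6 in Z on. These groups did not overlap, in the upward direction (0.33, SE 0.18, adjusted p 0.823), while in M mice the difference was 0.02. The 3 probe sets shared by the Ugt1a genes, the family that includes the bilirubin enzyme, read 6227 to 8429, 2881 to 4257 and 2936 to 3969 over all arrays, with on-minus-off differences of 0.03, 0.02 and -0.10.

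The upstream sequences of 3 UGT2B genes are shown because Ugt2b37 and Ugt2b38, which both read lower in on mice, have the most alike promoters of the family, while Ugt2b5 has a similar one and differed little. They are from RefSeq, build GRCm38.p6, all on the minus strand of chromosome 5 and read toward the gene, at chr5:87254789-87255038, chr5:87424204-87424453 and chr5:87140341-87140590. Capitals mark bases that differ or have no partner in a global alignment, of Ugt2b37 and Ugt2b38 with each other and of Ugt2b5 with Ugt2b38.
Ugt2b37: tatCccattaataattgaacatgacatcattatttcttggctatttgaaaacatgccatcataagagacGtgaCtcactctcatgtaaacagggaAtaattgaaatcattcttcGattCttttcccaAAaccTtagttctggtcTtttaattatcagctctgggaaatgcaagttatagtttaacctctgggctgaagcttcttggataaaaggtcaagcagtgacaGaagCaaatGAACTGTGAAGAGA
Ugt2b38: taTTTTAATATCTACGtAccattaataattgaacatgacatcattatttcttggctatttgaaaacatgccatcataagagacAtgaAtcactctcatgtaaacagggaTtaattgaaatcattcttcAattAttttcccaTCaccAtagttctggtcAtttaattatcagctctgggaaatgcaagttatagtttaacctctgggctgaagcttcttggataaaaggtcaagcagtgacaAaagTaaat
Ugt2b5: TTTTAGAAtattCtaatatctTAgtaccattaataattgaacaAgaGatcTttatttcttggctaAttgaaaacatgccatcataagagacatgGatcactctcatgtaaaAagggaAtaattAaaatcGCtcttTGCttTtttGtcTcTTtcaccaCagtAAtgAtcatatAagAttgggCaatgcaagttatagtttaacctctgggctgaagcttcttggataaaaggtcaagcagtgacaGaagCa
The alignment of Ugt2b37 with Ugt2b38 was identical in 84.8% of its columns, Ugt2b38 with Ugt2b5 in 81.5% and Ugt2b37 with Ugt2b5 in 72.6%, while the other UGT2 pairs lay between 46.3% and 50.5%. None of the 3 windows held either motif core. Transcripts of such related genes can bind each other's probes, and how far the probe sets separate them was not tested.

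Among the SULTs, no gene separated all on from all off arrays, beside 0.318% of all probe sets. In either line 0 of 11 had an unadjusted p under 0.05, beside 6.29% of all probe sets in Z mice and 5.18% in M mice. Sult1a1, the phenol sulfotransferase, averaged 1193 ± 108 in M off, 1231 ± 742 in M on, 1223 ± 196 in Z off and 1297 ± 367 in Z on (SD, n = 3). Its interval over both lines was wide, -0.65 to 0.58, because the M on arrays ranged from 616.8 to 2054.9. Sult1d1, which acts on catecholamines, read 295.9 to 483.9 in M off and 191.5 to 317.4 in M on (-0.51, SE 0.28, adjusted p 1.0), and its Z difference was 0.16. Without M on replicate 2, the lowest array, the M value was -0.27. A second Sult1d1 probe set gave -0.40 (SE 0.30) in M mice and -0.15 (SE 0.30) in Z mice. Sult1b1, which acts on thyroid hormones, read 152.1 to 163.6 in Z off and 164.1 to 174.0 in Z on, without overlap but with a difference of only 0.09. In M mice its difference was -0.23 with overlap, -0.03 without M on replicate 2 and -0.48 without M on replicate 3.

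**Figure D3:**
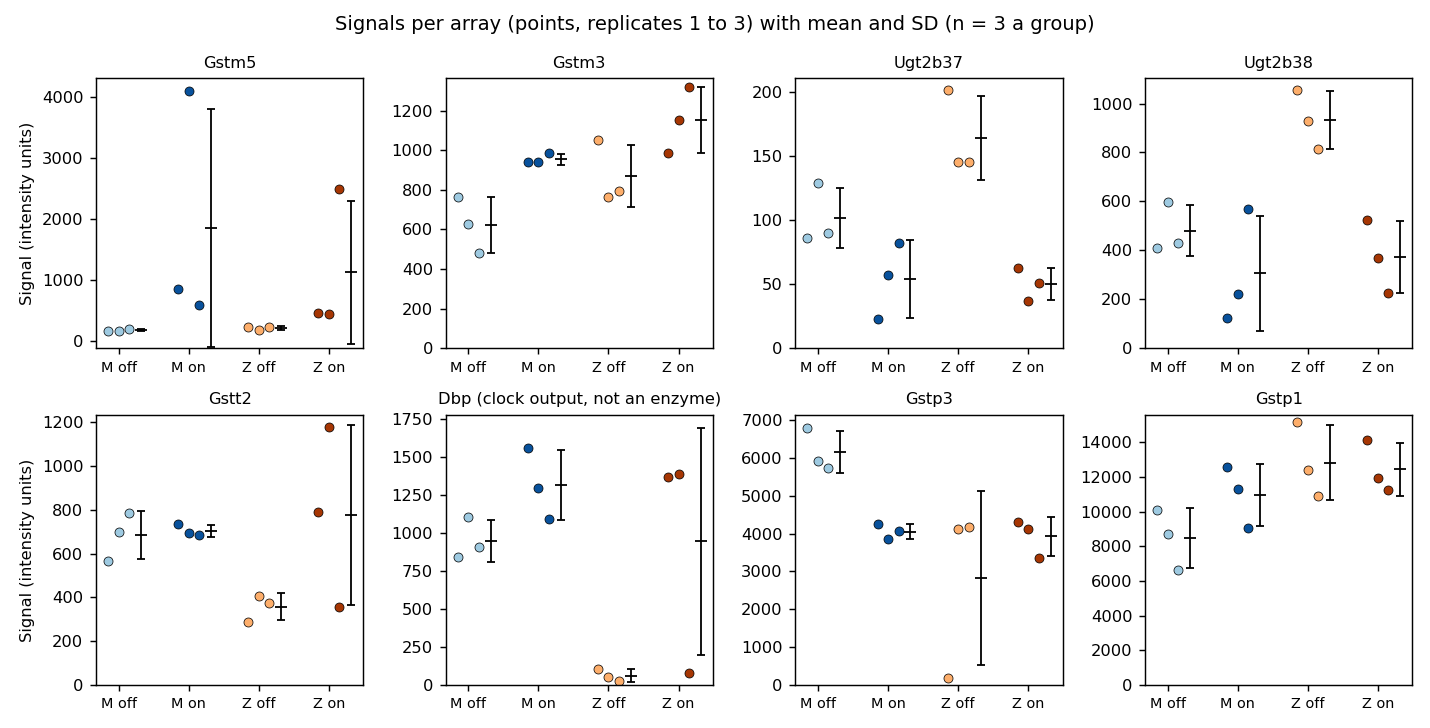
Signal on each array (points, replicates 1 to 3 from left to right) with the mean and SD of each group (n = 3) for 7 conjugation genes and for Dbp, in intensity units on linear axes. Gstm5 is higher and Ugt2b37 lower on all 6 on arrays, Gstt2 and Dbp are low on the 3 Z off arrays and on Z on replicate 3, and Gstp3 is low on Z off replicate 1.

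For Gstt2, of the theta class, and Gstp3, of the pi class, single arrays moved some of the values. Gstt2 read 287.6, 405.6 and 375.4 in Z off, and 790.8, 1180.0 and 355.6 in Z on. In M mice it read 568.3 to 784.3 in off and 684.1 to 736.2 in on. Z on replicate 3 thus lay with the Z off arrays, which were all below the M arrays. Z on minus Z off was 0.97 (SE 0.38, adjusted p 0.744), and Z off minus M off was -0.94 (SE 0.38, adjusted p 0.606). Without Z on replicate 3 the Z difference was 1.45 (SE 0.25, adjusted p 0.18), and without Z on replicate 2, the highest array, it was 0.59 (SE 0.33, adjusted p 0.837). The circadian transcription factor Dbp was low on the same 4 arrays, at 107.1, 51.1 and 23.8 in Z off and 80.1 in Z on replicate 3, against 1365.0 and 1385.3 on the other two Z on arrays and 838.7 to 1555.9 in M mice. The time of day of collection was not in the labels, and the part of the clock in the Gstt2 values was not tested.

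Gstp3, a second pi-class gene, read 181.2 on Z off replicate 1 and 3343.4 to 6806.7 on the other 11 arrays. Of 11313 brighter probe sets, it was the 1 that lay that far (over 10-fold) below every other array on that array. In M mice it read 6806.7, 5936.9 and 5741.9 in off and 4247.7, 3847.5 and 4069.1 in on. These M groups did not overlap, with a difference of -0.60 whose SE was 0.98 with all arrays (adjusted p 1.0) and 0.17 without Z off replicate 1 (adjusted p 0.689). Z off minus M off was -2.07 (SE 0.98, adjusted p 0.672) with all arrays and -0.56 (SE 0.19, adjusted p 0.591) without that array. Of the dim genes, Mgst2 read 0.9 to 4.4 in M off and 8.0 to 26.6 in M on (2.97, SE 0.99, adjusted p 0.826), near the bottom of the scale where log2 differences are least certain.

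Between the lines, more conjugation genes read higher in Z than in M mice. For the mean of the Z groups minus the mean of the M groups, 0 of 38 genes were called, beside 0.0884% of all probe sets, and 7 genes (18.4%) had an unadjusted p under 0.05, beside 9.09% of all probe sets and 10.4% of the brighter ones. All 7 were higher in Z mice (5.19% of all probe sets), namely Sult5a1, Gstp1, Sult1b1, Gsta3, Gstm4, Gstm3 and Gstm1. The median over the 38 genes was 0.14, beside 0.02 over all probe sets. In Z off against M off, 0 of 38 were called beside 0.0707%, and 11 genes (28.9%) had groups that did not overlap, 8 of them higher in Z, beside 15.1% of all probe sets (8.36% higher) and 19.8% of the brighter ones. In Z on against M on, 0 of 38 were called beside 0.00884%, and 7 genes (18.4%) did not overlap, 6 of them higher in Z, beside 12.1% (6.07% higher) and 14.4%. Because the lines were separate, line and transgene form cannot be told apart in these comparisons.

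Sult5a1, a sulfotransferase of little known function, gave the smallest adjusted p between the lines. It read 244.1, 143.5 and 147.3 in M off and 170.1, 139.9 and 198.6 in M on. It read 274.7, 235.1 and 335.4 in Z off and 264.2, 245.1 and 244.2 in Z on. Only M off replicate 1 reached into the range of the Z arrays. The line difference was 0.64 (SE 0.18, adjusted p 0.312), a 1.55-fold difference, and it was 0.69 in off and 0.58 in on mice.

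Gstp1 read 10099.8, 8717.7 and 6651.0 in M off and 15152.3, 12433.0 and 10880.5 in Z off, without overlap (0.60, SE 0.22, adjusted p 0.587). Its averaged line difference was 0.40 (SE 0.16, adjusted p 0.507). Gstp1 also stands in a list of 9 measured male-biased liver genes, and the counts include it. Of the 9, 7 were higher in Z than M mice (52.1% of all probe sets were), with a median of 0.59. An unadjusted p under 0.05 was seen in 6 of them (66.7%), all higher in Z, beside 9.09% of all probe sets (5.19% higher). The list was chosen with earlier results of these data known, so these counts are a description only. The steroid hydroxylase Cyp7b1 had the smallest p of that list (1.39, SE 0.22, adjusted p 0.0801), followed by the fatty acid elongase Elovl3 (1.68, SE 0.31, adjusted p 0.118), and 0 of the 9 were called. Of 8 measured female-biased genes, 7 were lower in Z mice and 1 higher (median -0.30), where 52.1% of all probe sets were higher. The 1 higher was the dim conjugation gene Sult3a1 (0.28, SE 0.95, adjusted p 0.955), which the counts include. Of these 8, 0 were called, and 6 lay below the median level. The relation of Gstp1 and Sult3a1 to these lists was not tested.

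All 7 mu-class genes read higher in Z off than in M off, with a median of 0.28, beside 0.03 over all probe sets, of which 52.8% were higher. Gstm4 read 300.3 to 336.4 in M off and 413.0 to 463.1 in Z off (0.44, SE 0.16, adjusted p 0.578), and Gstm6 read 204.6 to 351.9 and 374.4 to 506.9 (0.77, SE 0.35, adjusted p 0.654). The mu-class genes lie close together in the genome and are alike in sequence, so these are not 7 independent readings. In on mice 5 of the 7 were higher in Z, beside 50.3% of all probe sets, with a median of 0.10. Gsta3 read 2809.8 to 2959.6 in M off and 2876.4 to 3960.3 in M on, against 2758.6 to 4337.0 in Z off and 3940.6 to 4570.2 in Z on (line difference 0.37, SE 0.15, adjusted p 0.516). Sult1b1 differed by 0.55 (SE 0.23, adjusted p 0.697) in on mice, where the groups did not overlap, and by 0.39 (SE 0.16, adjusted p 0.509) between the lines. In off mice, 3 genes read lower in the Z line without overlap, namely Gstp3, Gstt2 and Ugt2a3. Ugt2a3 read 1314.6 to 1508.6 in M off and 1001.8 to 1214.5 in Z off (-0.28, SE 0.18, adjusted p 0.753), and its difference in on mice was 0.03. Gstk1 read 2346.1 to 2562.5 in M off and 1687.6 to 2365.4 in Z off, with overlap (-0.31, SE 0.18, adjusted p 0.732).

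**Figure D4:**
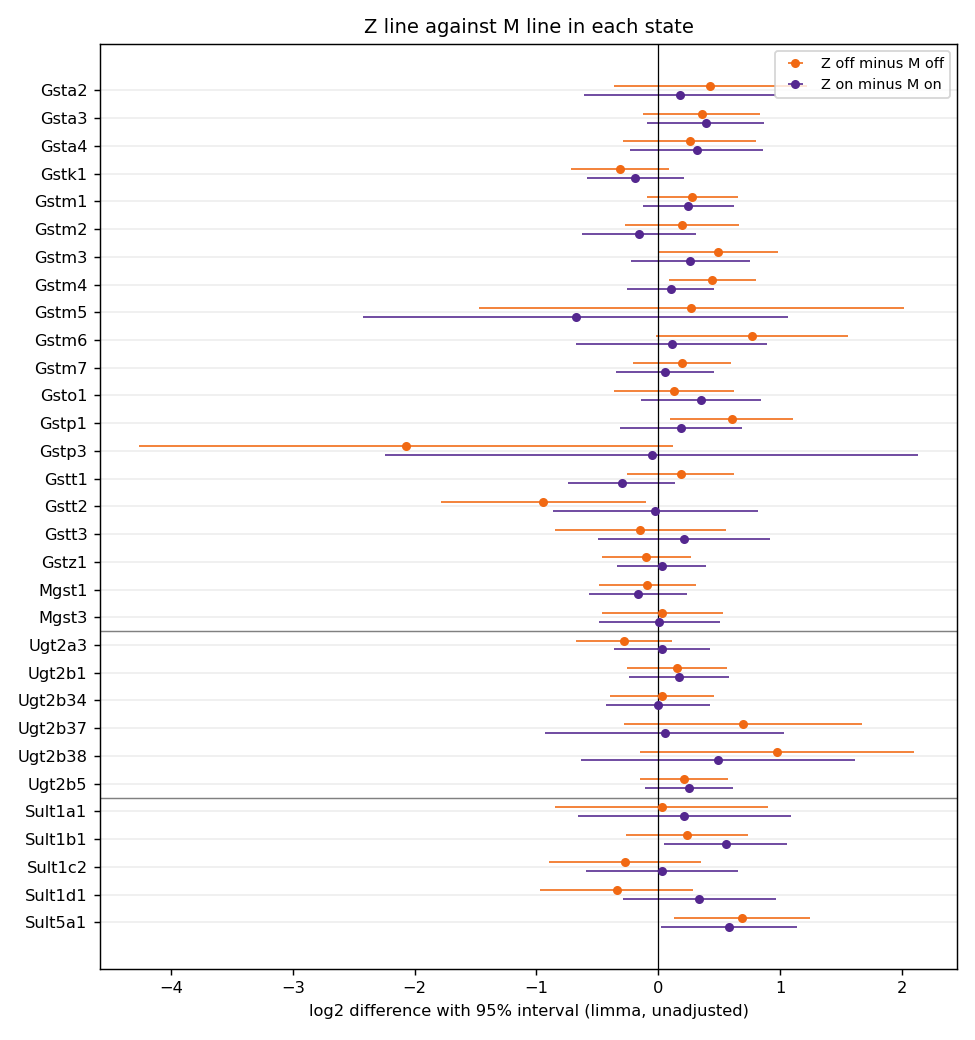
Z-minus-M log2 difference in off mice (orange) and on mice (purple) of the 31 conjugation genes at or above the median level, with 95% intervals from limma that are not adjusted for the number of probe sets (n = 3 arrays a group). Most points lie right of 0, including Sult5a1 (0.69 and 0.58), and Gstp3 and Gstt2 lie left of 0 in off mice.

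The genes that supply the cofactors of conjugation were followed as a list. Of 15 measured genes, 0 were called in any comparison, and their median on-minus-off difference was -0.05 in Z and -0.04 in M mice. The largest on-minus-off departure in Z mice was that of Gclc, the catalytic subunit of the enzyme that begins glutathione synthesis, which read 2629.2, 1578.2 and 1268.0 in Z off and 638.0, 1452.7 and 834.3 in Z on (-0.92, SE 0.45, adjusted p 0.799). Papss2, which makes the sulfate donor PAPS, differed by 0.39 (SE 0.25, adjusted p 0.857) in the same comparison. Between the lines, the sulfate carrier Slc26a1 differed by 1.28 (SE 0.51, adjusted p 0.498) and glutathione reductase, Gsr, by 0.35 (SE 0.15, adjusted p 0.537).

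Known regulators and other targets of the same pathways gave few calls. Of 17 regulators, 0 were called, and the repressor Bcl6 was higher in Z on than Z off (1.15, SE 0.44, adjusted p 0.744) and lower in M on than M off (-1.24, SE 0.44, adjusted p 0.871). Of 10 NRF2 targets outside the families, 0 were called, and the growth inhibitor Osgin1 had the smallest p in Z mice (-1.84, SE 0.30, adjusted p 0.21) and the aldehyde dehydrogenase Aldh1a7 in M mice (0.86, SE 0.20, adjusted p 0.489). Of 15 CAR, PXR and AHR targets, Alas1, the first enzyme of haem synthesis, read 455.0 to 928.1 on off arrays and 1275.1 to 3469.0 on on arrays without overlap (1.74, SE 0.28, adjusted p 0.185). In that list 1 gene was called, the cytochrome P450 Cyp3a13. It was lower in Z off than M off (-1.77, SE 0.21, adjusted p 0.0344), where 0.0707% of all probe sets were called. It was also lower in the mean of the Z groups than of the M groups (-1.30, SE 0.15, adjusted p 0.0174), beside 0.0884%. Of 16 clock genes, 9 (56.2%) had an unadjusted p under 0.05 in Z on against Z off, beside 6.29% of all probe sets, and 4 (25.0%) in M on against M off, beside 5.18%. In both comparisons 0 were called, with Nr1d2, a clock repressor, at 1.59 (SE 0.31, adjusted p 0.443) in Z mice. The off groups also differed: in Z off against M off 11 of the 16 clock genes (68.8%) did not overlap, beside 15.1% of all probe sets. Of these 11, 4 were higher and 7 lower in Z off, and 0 of the 16 were called. The part of the clock in the differences between the lines was not tested. Of 9 pericentral markers, 7 were higher and 2 lower in Z on than Z off (median 0.27). Of 5 periportal markers, 2 were higher and 3 lower (median -0.10), and 0 of either list were called. The smallest p of each list in that comparison was that of the ornithine aminotransferase Oat (0.71, SE 0.24, adjusted p 0.694) and of the gluconeogenic Pck1 (1.61, SE 0.38, adjusted p 0.533).

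Markers of other cell types were read on the same arrays. Summed signals on single arrays were 1429 to 2015 for 7 macrophage, 324 to 461 for 5 endothelial, 51.5 to 183.7 for 5 cholangiocyte, 40.1 to 130.1 for 3 neutrophil, 82.7 to 135.8 for 5 lymphocyte, 27.0 to 387.0 for 4 muscle and 1291 to 1856 for 5 pancreas and gut genes. The 6 stellate cell markers summed to 1646 to 1904 in the off groups and 1015 to 1615 in the on groups. Such a sum is weighted to the brightest probe sets. Marker by marker, 5 of these 6 were lower and 1 higher in on against off over both lines (median -0.23). Of the 6, 0 were called, 0 separated all on from all off arrays, and 2 lay below the median level. The 3 erythroid markers summed to 1153 to 1500 in Z off and to 159.0 to 335.0 in the other groups. In Z on against Z off, 1 of the 3 was lower and 2 were higher, with a median of 0.08. Of the 3, 2 lay below the median level. The lower, the erythroid haem enzyme Alas2, was the 1 marker called in that comparison (-2.88, adjusted p 0.00159), beside 0.0133% of all probe sets. The part of these cell type markers in the conjugation gene values was not tested. In whole liver, fewer cells of a type and less RNA per cell cannot be told apart.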

How the data were processed

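Per the labels' protocols, biotin-labelled RNA of 12 livers was read on Affymetrix arrays of 1 colour, 3 per group. The authors deposited an intensity on a linear scale for each probe set. The submitters' processing notes name RMA, which gives log2 values equal in distribution, unlike these, so which software made them is unknown. Of 22690 probe sets, 64 controls were left out. Gene names came from the platform annotation: 20380 of 22626 probe sets had 1 symbol, 691 several and 1555 none. The 38 genes had 49 probe sets of their own, and 5 more probe sets that name several genes were kept apart.

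Signals were taken to log2, with 1 value of 0 set to 0.1, without further normalization or filter; 28.3% of all values lay below 16, where log2 differences are uncertain. The 12 arrays were fitted together with a mean for each group (limma 3.58.1 in R 4.3.3, two-sided), with Benjamini-Hochberg adjustment over 22626 probe sets; fold changes are on this scale. The number of arrays limits the precision. Group contrasts share arrays. Genes were named by rule: any called, the 4 in each direction with the smallest p per comparison among genes at or above the median level, the 4 brightest of each family, and up to 2 per list. Other conjugation genes are given as members of the families. Genes, lists and comparisons were chosen with earlier results of these data known. Lists were conjugation cofactor supply, regulators, NRF2 targets, CAR, PXR and AHR targets, sex-biased, clock, zonal and cell type markers. Promoters are RefSeq GRCm38.p6, 250 bases before the start, with 34 of 38 genes matched by symbol.

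Alternatives were quantile normalization, median centring, an added 16, a filter on dim probe sets, trended robust variances, array weights, the mean of a gene's probe sets, only the groups compared, the replicate block, and each array left out. Replicate numbers were not treated as pairs.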

Additional observations from a re-analysis of the deposited data

How the results depend on the processing

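No conjugation gene was called under any of 21 alternative settings, 12 of which left out 1 array (0 in each of 144 counts). The smallest adjusted p over all of them was 0.066, in on against off. Of 1152 alternative values of 56 named gene differences, none passed the threshold and 1150 kept their direction. This count does not cover size, which moved more, as for Mgst3 in M on minus M off (0.41 as reported, from 0.05 to 0.50). The 2 values that turned direction were of Gstm5 in Z on minus M on and of Gstm7 in on minus off. Gstm5 was -0.68 as reported and from -1.50 (without Z on replicate 3) to 0.17 (without M on replicate 2, adjusted p 0.976) with single arrays left out. Gstm7 went from -0.20 to 0.014 (adjusted p 0.996) with the mean of its probe sets. The number of all probe sets called moved widely, from 0 to 8 in Z on minus Z off (3 as reported), 0 to 8 in M on minus M off (0), 0 to 4 in the difference of the lines' changes (0), 0 to 22 in Z on minus M on (2), 0 to 51 in Z off minus M off (16), 7 to 110 in Z minus M (20) and 0 to 17 in on minus off (2). The fit to only the groups compared could not be made for the averaged comparisons or for the difference of changes.

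Deviations of same-numbered arrays from their group means correlated from -0.08 to 0.16 (3 of 18 over 0.1). Those of differently numbered arrays correlated from -0.18 to 0.16 (3 of 36 over 0.1), and the numbers were not treated as pairs. With the replicate block 0 conjugation genes were called, and Gstp1 in Z off minus M off had an adjusted p of 0.444. Signals near the bottom of the scale limit the 7 dim genes.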

Other observations

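Where a gene had more than 1 probe set, the dimmer one sometimes behaved differently. A second Ugt2b34 probe set read 1344.1 to 2441.4 on off arrays and 1127.3 to 1703.2 on on arrays, with an on-minus-off difference of -0.29 (SE 0.15, adjusted p 0.863), while the brighter one gave 0.03. In the Z-minus-M comparison these probe sets gave 0.38 (SE 0.15, adjusted p 0.487) and 0.02. The probe set that names Gm3776, Gsta2 and Gsta1 together read 215.1 to 307.1 in M off and 314.9 to 522.8 in M on, without overlap (0.73, SE 0.40, adjusted p 1.0), and in Z mice its difference was 0.03.

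Replicate 2 of Z on read highest of all 12 arrays for Gsta2 (675.5) and for Gstt2 (1180.0), and replicate 1 of M on for Mgst1 (14302.8) and Sult1a1 (2054.9). These are single arrays, and no explanation was tested.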
